A study of Mus musculus with 25 samples.

Results

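The Hox cluster genes are the genes of the HoxA, HoxB, HoxC and HoxD clusters, chosen here by gene symbol. The table of CpG methylation levels held 1277 CpGs annotated to 38 of them, among 283974 CpGs in all, and 1236 of the Hox CpGs had an average coverage of at least 10 reads. A CpG was tested where at least 3 mice of every compared group had a value. This left 950 Hox CpGs in 37 genes, of 129215 CpGs tested in all. The single CpG of Hoxd10 was not tested.

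The DNA came from mammary fat pads of wild-type C57BL/6N mice and was read by reduced representation bisulfite sequencing (RRBS), which sequences short MspI fragments and is rich in CpG islands. Mice of the groups MCR, LFCR, LFD and ICR had first been made obese on a 60% high-fat diet and then lost weight. MCR was a Mediterranean-style diet with 30% calorie restriction (n = 3), LFCR a low-fat diet with 30% calorie restriction (n = 4), LFD a low-fat diet without restriction (n = 3 of 4 analysed) and ICR intermittent calorie restriction (n = 5). Of 4 mice that stayed obese, 1 was analysed and entered no comparison. Control mice (n = 5) ate the control diet throughout. All mice, Control included, were injected with E0771 mouse mammary cancer cells in the 4th fat pad at week 25, and the uninjected 9th pad of the other side was sampled when the tumours reached endpoint. The titles hold the word tumor and a cell type label names mammary cancer, while the tissue label says normal. A pad holds fat, epithelium, stroma and blood cells, so a change within cells and a change in the mixture of cells cannot be told apart.

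Hox genes encode homeodomain transcription factors that give cells their position along the body axis. Their order on the chromosome follows the order of the body parts they pattern, from paralogue group 1 at the head end to group 13 at the tail end, and adult fibroblasts and fat cells keep a Hox pattern that marks their site. Silent Hox genes are usually held by Polycomb proteins on unmethylated CpG islands. In the mouse, Hoxa9, Hoxb9 and Hoxd9 act together in growth of the mammary gland in pregnancy, and Hoxc6 and Hoxc8 are known from mammary development.

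Of the 25 libraries, 4 stood apart and were left out by the rule for the groups: mice 27, 28 and 40 of the Obese group and mouse 46 of the LFD group. Over 135 Hox CpGs whose mean level was under 5% in Control mice, these 4 had mean levels of 50.1 to 51.0%, against 1.79 to 3.50% in the other 21. They gave a value at 56.1 to 62.7% of the tested Hox CpGs, against 86.0 to 100% in the other 21. The average coverage of the tested Hox CpGs had a median of 82.3 reads, against 56.9 reads over all tested CpGs. No depth per library is given, so the precision of a single mouse's value is unknown. Named calls are those of the 21 libraries. With all 25 libraries 35 named results lost their call, 52 kept their call or lack of one, and 2 changed sign. The lost calls are not marked one by one below, where only counts with all 25 libraries and the changes of sign are given.

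The CpGs were split by the deposited annotation into 405 at promoter features (annotated to the 1st exon, as 300 of them were, to the 5'UTR, or to bases shortly before the start), 424 in gene bodies and 121 elsewhere. A region is the set of tested promoter-feature or body CpGs of 1 gene, with at least 3 CpGs, and its level in a mouse is the average over those CpGs in percent of reads methylated. There were 30 promoter and 25 body regions in 35 genes. Genes share CpGs: the annotation of Hoxa3 runs across Hoxa4, Hoxa5 and Hoxa6, that of Hoxc5 across Hoxc6 to Hoxc10, and that of Hoxd3 across Hoxd4, so these regions are not independent. A CpG or region is called where its adjusted p is under 0.05 in the limma fit over all CpGs or regions of the table.

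Tested CpGs were spread unevenly over the genes. On chromosome 6, HoxA had 14 tested CpGs in Hoxa2, 221 in Hoxa3, 30 in Hoxa4, 57 in Hoxa5, 13 in Hoxa6, 9 in Hoxa7, 55 in Hoxa9, 31 in Hoxa10, 21 in Hoxa11 and 5 in Hoxa13. HoxB, on chromosome 11, had 12 in Hoxb1, 4 in Hoxb2, 117 in Hoxb3, 16 in Hoxb4, 21 in Hoxb5, 15 in Hoxb6, 9 in Hoxb7, 4 in Hoxb8, 10 in Hoxb9 and 5 in Hoxb13. HoxC, on chromosome 15, had 17 in Hoxc4, 92 in Hoxc5, 24 in Hoxc6, 7 in Hoxc8, 15 in Hoxc9, 7 in Hoxc10, 19 in Hoxc11, 6 in Hoxc12 and 17 in Hoxc13. HoxD, on chromosome 2, had 3 in Hoxd1, 164 in Hoxd3, 40 in Hoxd4, 4 in Hoxd8, 13 in Hoxd9, 24 in Hoxd11, 14 in Hoxd12 and 6 in Hoxd13.

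Levels in Control mice ran from near 0 to over 60%, and which genes stood high differed between clusters. In HoxA, the promoter of Hoxa5 (known for roles in lung and mammary development) was highest at 62.5% ± 7.62 and that of Hoxa7 lowest at 1.04% ± 0.389 (SD, n = 5 each). The HoxB promoter of highest level was that of Hoxb3, a hindbrain and neck gene, at 54.7% ± 5.34, and the lowest was that of Hoxb2 at 1.82% ± 0.928. All measured HoxC promoters were low, from 3.20% ± 0.998 at Hoxc8 to 9.04% ± 3.36 at Hoxc6. In HoxD, the promoter of Hoxd4 averaged 22.0% ± 2.16 and that of Hoxd8 1.57% ± 0.932. Among bodies, those of Hoxa5 (77.4% ± 16.0) and Hoxb3 (63.7% ± 5.32) were highest in Control mice, and those of Hoxa13 (2.17% ± 1.27) and Hoxc13 (3.67% ± 2.20) lowest. Of 30 promoter regions, 18 were under 10% in Control mice.

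Few of the tested CpGs lay in the windows around RefSeq starts. RefSeq (GRCm38.p6) gave promoter windows of 300 bases for 22 of the Hox genes, and 5 of these windows held a tested CpG. The Hoxa5 window (chr6:52204538-52204837, minus strand) held 9, all lower in MCR and all called, with differences of -43.4 to -24 points. The table annotates these 9 CpGs to the body of Hoxa3, whose long annotation spans Hoxa5, although they lie 128 to 238 bases upstream of the RefSeq start of Hoxa5. The Hoxd4 window (chr2:74721728-74722027, plus strand) held 3, annotated to the bodies of Hoxd3 and Hoxd4, and none was called, with differences of -4.93 to 3.97 points. The stretches below, of 30 bases each and read 5′ to 3′ on the gene's strand, hold 2, 1 and 5 of the tested Hoxa5 CpGs and 1 each of the tested Hoxd4 CpGs, with these in capitals; the tested CpGs at chr6:52204825 and chr2:74721814 lie outside them:
Hoxa5, chr6:52204704-52204733: taacctcaattCGacccCGgcccttgaagc
Hoxa5, chr6:52204753-52204782: tcctaatggaactgCGagggaaatgcaata
Hoxa5, chr6:52204795-52204824: cCGggCGtgCGatCGgcagctgaCGgcctc
Hoxd4, chr2:74721829-74721858: aatatgacctctctCGcattctggatattt
Hoxd4, chr2:74721937-74721966: tggttctgcagagcCGggacctgagtggct

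The first Hoxa5 stretch held the CpG of the greatest loss in that window, at 12.6% ± 7.42 in MCR and 56.0% ± 9.17 in Control mice (SD, n = 3 and 5). In the second stretch the level was 19.4% ± 3.13 in MCR and 43.4% ± 5.95 in Control mice. In the third, 5 CpGs close together stood at 27.4 to 42.4% in MCR and 58.1 to 72.8% in Control mice. The first printed Hoxd4 CpG stood at 43.3% ± 10.5 in MCR and 41.8% ± 3.94 in Control mice, within the spread between mice, and the second at 19.8% ± 6.78 in MCR and 15.8% ± 4.44 in Control mice. MspI cuts at CCGG, which occurs in both windows and in 52.8% of the 32817 RefSeq promoter windows of the mouse (it reads the same on both strands).

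Mediterranean-style restriction went with lower methylation at the head end of HoxA and at Hoxb3, and with higher methylation at the tail end of HoxA and at Hoxd3. Among promoter-feature CpGs, 154 of 405 were lower in MCR than in Control mice and 23 were higher. Over all promoter-feature CpGs of the table, 24.7% were lower and 3.41% higher in this comparison, against 38.0% and 5.68% of the Hox ones. Of 424 body CpGs, 171 were lower and 65 higher, or 40.3% and 15.3%, where 34.6% and 4.71% of all body CpGs were. The clusters differed. Among promoter-feature CpGs, 84 of 120 were lower and 2 higher in HoxA, and 58 of 112 lower and 10 higher in HoxB. In HoxC 7 of 62 were lower and 1 higher, and in HoxD 5 of 111 were lower and 10 higher. Among body CpGs, 112 of 189 were lower in HoxA and 50 of 92 in HoxB, with 22 and 4 higher. In HoxC 7 of 43 were lower and 6 higher, and in HoxD 2 of 100 were lower and 33 higher. By region, 15 of 30 promoters were lower and 3 higher (43.2% and 4.26% of all promoters), and 13 of 25 bodies were lower and 6 higher (61% and 4.19% of all bodies). The share of lower regions was thus close to that of all genes, and the share of higher bodies, 24%, was above it. In 36 of these 37 regions every MCR mouse lay outside the range of the Control mice, the exception being the Hoxd3 promoter. The median difference was -2.13 points over Hox promoters and -5.52 points over Hox bodies, against -3.78 and -7.58 points over all promoters and bodies. With all 25 libraries 15 Hox regions were called in MCR, against 37 in the 21.

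**Figure D1:**
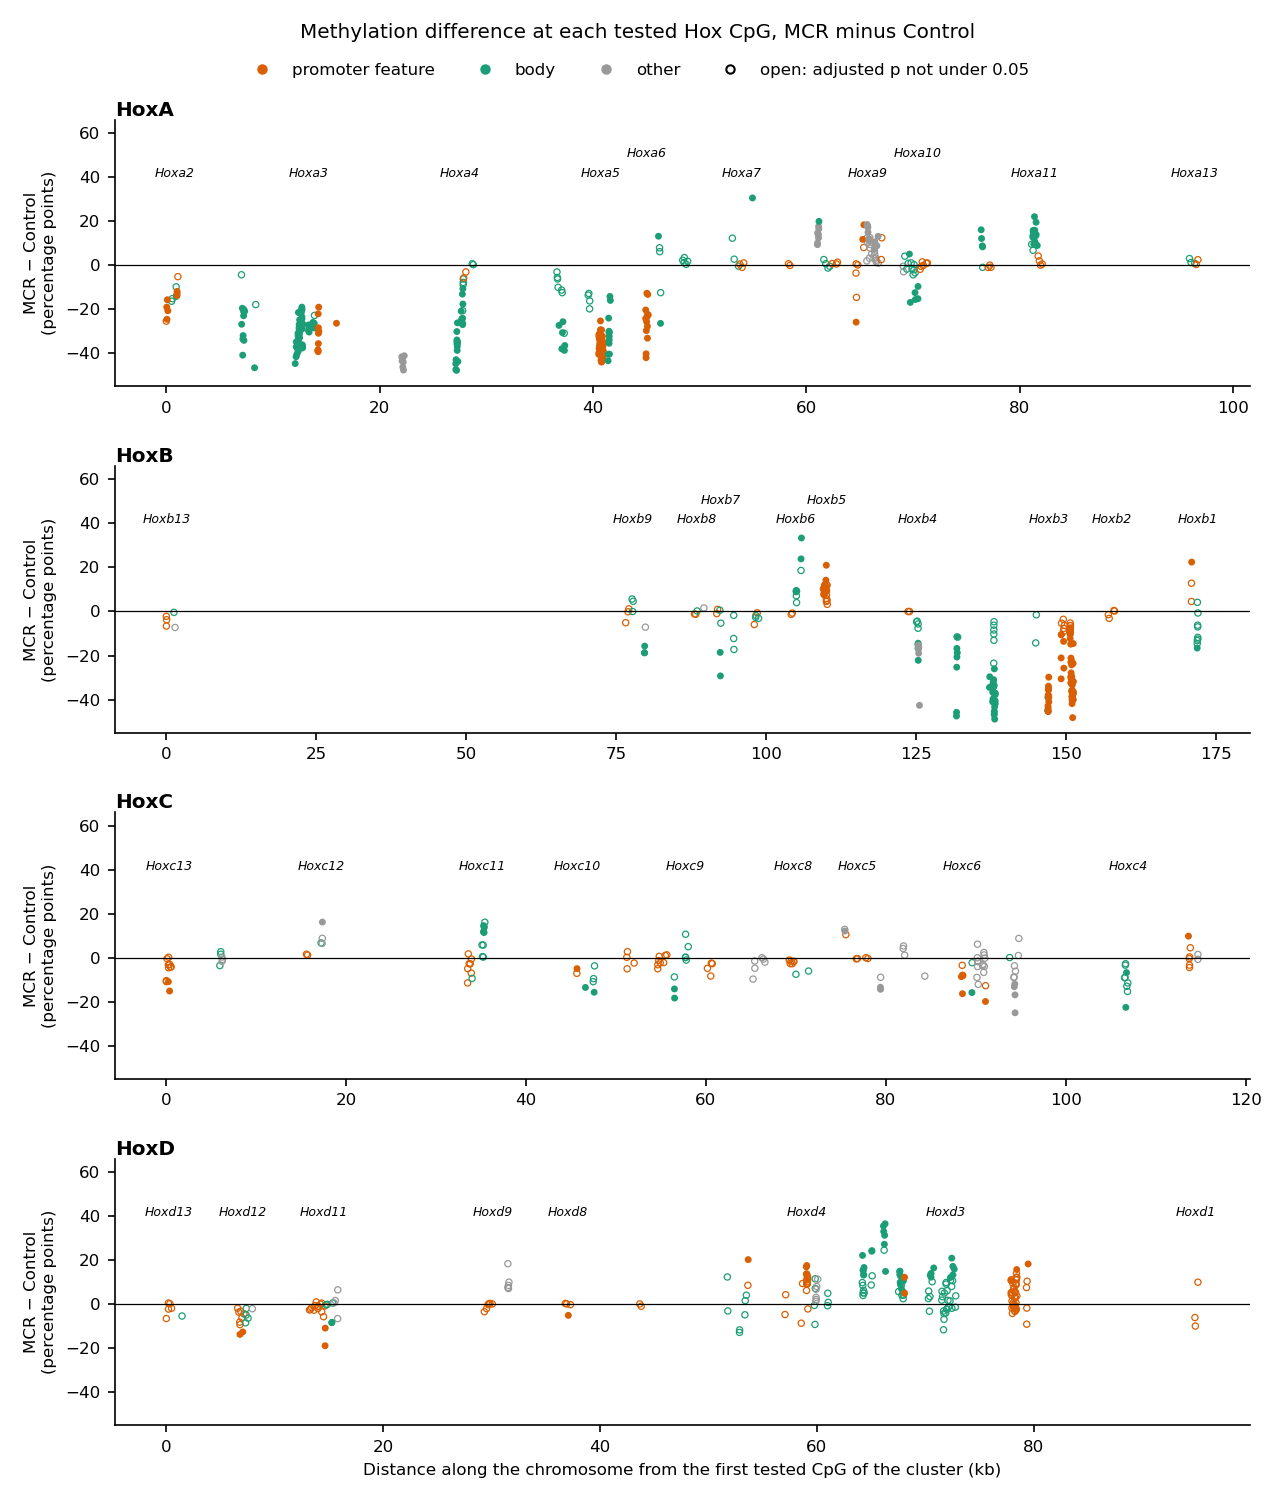
Difference in methylation level at each of the 950 tested Hox CpGs, MCR minus Control in percentage points (y axis), against distance along each cluster in kb (x axis); filled points have an adjusted p under 0.05, and gene names stand near each gene's CpGs. HoxA runs from paralogue 2 to 13 from left to right and the other clusters run from 13 to 1; filled points are below 0 from Hoxa2 to Hoxa6, with 1 exception, and at Hoxb3, and mostly above 0 from Hoxa7 to Hoxa13 and at Hoxd3.

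HoxA changed direction along its length. From Hoxa2 to Hoxa6, 198 of 235 CpGs were lower and 1 higher in MCR, and the median CpG level was 24.2% in MCR against 59.8% in Control mice. From Hoxa7 to Hoxa13, 6 of 121 CpGs were lower and 44 higher, and the median CpG level was 15.4% in MCR against 8.20% in Control mice. The lower CpGs made up 84.3% of the first stretch and the higher ones 36.4% of the second, where 32.8% of all CpGs tested were lower and 4.54% higher. The last tested CpG of the first stretch and the first of the second are at chr6:52212175 and chr6:52216368 of mm10. This cut was not planned and lies where the direction changes, so the values on either side describe the change and do not test it. In the planned grouping, 198 of 235 CpGs of paralogues 1 to 4 were lower and 1 higher. For paralogues 5 to 8 these were 66 and 1 of 79, and for paralogues 9 to 13, 6 and 43 of 112. These groups share CpGs.

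The mean level from Hoxa2 to Hoxa6 was 25.3, 23.2 and 27.9% in the MCR mice 85, 95 and 96, against 51.0, 62.9, 52.6, 47.3 and 54.3% in the Control mice 1, 2, 5, 10 and 13. All MCR mice lay below all Control mice, and Control mouse 2 was the highest of the 21. Control mouse 2 was also the highest of the 21 over all 129215 CpGs, at 58.0%. From Hoxa7 to Hoxa13 the same MCR mice stood at 15.8, 17.6 and 17.6%, against 10.7, 10.2, 12.2, 12.7 and 11.5% in the Control mice. Here all MCR mice lay above all Control mice, and mouse 2 was the lowest. Over all 129215 CpGs the mean level was 47.0% ± 0.348 in MCR and 56.0% ± 1.49 in Control mice (SD, n = 3 and 5), and over all tested Hox CpGs it was 21.5% ± 1.21 in MCR and 30.7% ± 1.69 in Control mice.

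The other diets stood between MCR and Control on both sides of HoxA. From Hoxa2 to Hoxa6 the group means were 25.5% ± 2.33 in MCR, 35.1% ± 10.8 in LFCR, 38.7% ± 10.5 in LFD and 44.0% ± 5.50 in ICR, against 53.6% ± 5.77 in Control mice (SD). LFCR mice 63 and 67 were at 26.5 and 25.3%, within the MCR range, while LFCR mice 69 and 72 were at 41.4 and 47.0%. LFD mouse 42, at 27.2%, also lay in the MCR range, and LFD mice 47 and 48 were at 47.5 and 41.5%. The Obese mouse 22 had 48.4% and lay inside the Control range. From Hoxa7 to Hoxa13 the order was the reverse, with 17.0% ± 1.05 in MCR, 14.2% ± 1.67 in LFCR, 13.8% ± 1.06 in LFD, 13.6% ± 1.09 in ICR and 11.5% ± 1.03 in Control mice. The means of LFCR, LFD and ICR lay within 1 SD of each other. The split of mice within LFCR and LFD was also seen over all 129215 CpGs. There LFCR mice 63 and 67 were at 46.7 and 47.3% and mice 69 and 72 at 52.1 and 54.4%. LFD mouse 42 was at 48.5%, and LFD mice 47 and 48 were at 54.5 and 52.5%.

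**Figure D2:**
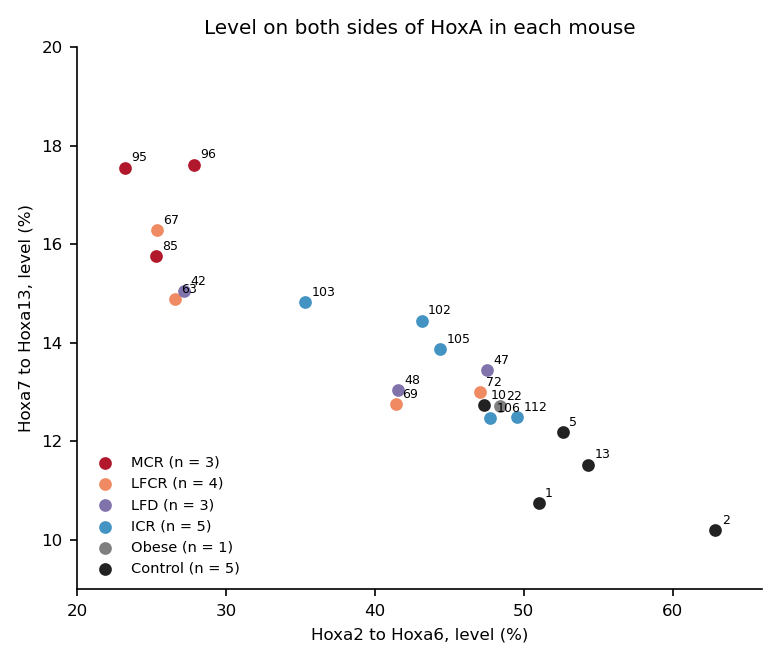
Mean level in percent over the 235 CpGs from Hoxa2 to Hoxa6 (x axis) and over the 121 CpGs from Hoxa7 to Hoxa13 (y axis) in each of 21 mice, with the mouse number beside each point and colour by diet group; neither axis starts at 0. The 3 MCR mice, LFCR mice 63 and 67 and LFD mouse 42 lie at the upper left, and the Control mice at the lower right with Control mouse 2 farthest out.

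Grouped by position into runs, with gaps of up to 1000 bases, the HoxA CpGs formed 16 runs, of which 9 were lower and 5 higher in MCR. Over all clusters 29 of 67 runs were lower and 17 higher, against 54.4% and 5.98% of all 15614 runs. The largest loss of any Hox run lay in Hoxa3 (chr6:52185382-52185601, 8 CpGs). It had 7.52, 9.79 and 8.49% in the MCR mice, against 32.0, 72.1, 56.1, 40.9 and 56.3% in the Control mice. The groups did not overlap, and the difference was -42.9 points (SE 10.1, limma adjusted p = 0.00215). A Hoxa3 run of 5 CpGs at the edge of that stretch (chr6:52211715-52212175) stood at 2.68% in MCR and 0.821% in Control mice and was not called (adjusted p = 0.157).

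**Figure D3:**
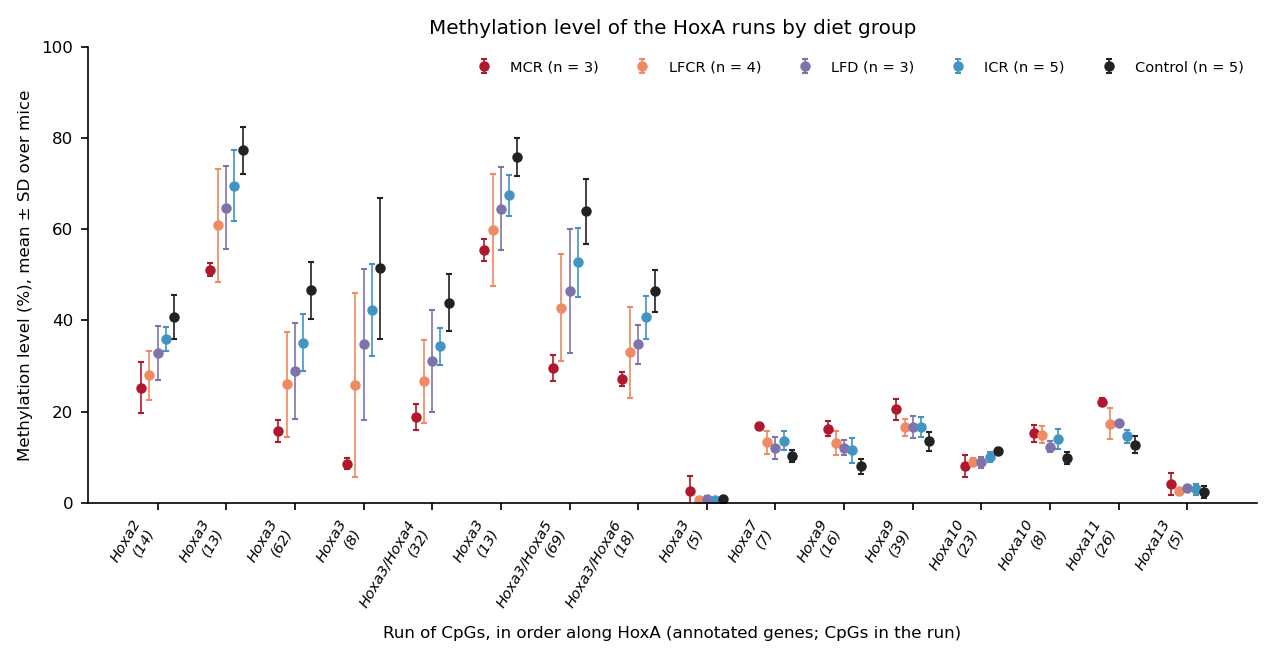
Methylation level in percent (y axis, mean ± SD over mice) of the 16 HoxA runs in order along the cluster (x axis, annotated genes with the number of CpGs), for MCR, LFCR, LFD, ICR and Control mice from left to right within each run. In the first 8 runs MCR is lowest and Control highest; in the runs of Hoxa7, Hoxa9 and Hoxa11 MCR is highest and Control lowest.

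Head-end and central genes carried the largest losses in MCR, led by promoters that were highly methylated in Control mice. Hoxa5 had promoter levels of 26.4, 22.3 and 29.2% in MCR mice, against 57.0, 73.5, 59.1, 55.7 and 67.3% in Control mice (53 CpGs, all in an island). The highest MCR mouse was far below the lowest Control mouse. Hoxa6, its neighbour, had 17.3, 18.4 and 20.6% in MCR mice, against 46.3, 53.9, 44.9, 36.2 and 42.3% in Control mice, a difference of -25.9 points (SE 5.34, adjusted p = 0.00132). Hoxa2, a hindbrain and second-arch gene, was lower by 16.6 points at its promoter (adjusted p = 0.00158) and by 13.8 points in its body (adjusted p = 0.00567). Hoxa3, needed for thymus and parathyroid formation, fell by 25.7 points in its body (SE 4.69), and Hoxa4 by 28.3 points (SE 5.40, adjusted p = 0.000531). In Hoxa4 the body level was 21, 18.5 and 24% in MCR mice, against 42.9, 60.5, 48.5, 43.4 and 52.3% in Control mice, again without overlap.

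Hoxb3 changed over most of its measured length. Its body stood at 32.0, 31.6 and 34.1% in MCR mice, against 65.0, 71.6, 61.9, 57.0 and 63.1% in Control mice (49 CpGs), a difference of -31.1 points (SE 5.08, adjusted p = 0.000415). The strongest loss lay in a run of 17 CpGs (chr11:96341919-96342100) with 6.01, 6.02 and 8.81% in MCR mice, against 33.8, 63.9, 48.4, 38.9 and 44.0% in Control mice. Control mouse 1 was the lowest of its group there and still far above the MCR mice. The CpG of largest loss among all Hox CpGs, in the Hoxb3 body at chr11:96333067, had 22.6, 9.09 and 25.7% in MCR mice, against 76.5, 75.6, 60.5, 66.1 and 61.7% in Control mice. Hoxb4, next to it and known from blood stem cells, fell to 3.76% in the body in MCR, against 15.1% in Control mice (adjusted p = 0.000712). Another Hoxb3 CpG, in its 5'UTR at chr11:96346074, stood at 21.1% in MCR and 69.3% in Control mice, and one shared by Hoxa3 and Hoxa4 at chr6:52190508 stood at 20.8% in MCR and 68.5% in Control mice. From Hoxb1 to Hoxb4, 109 of 149 CpGs were lower and 1 was higher, where 32.8% of all CpGs were lower and 4.54% higher.

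Other losses were smaller or started from low levels. In HoxB, the bodies of Hoxb7 (-12 points), Hoxb1 (-10.5 points) and Hoxb9 (-7.15 points) were lower in MCR. In HoxC, the bodies of Hoxc10 (-10.7 points), Hoxc4 (-10.2 points) and Hoxc5 (-6.18 points) were lower, and so were the promoters of Hoxc5, Hoxc6, Hoxc8, Hoxc9, Hoxc11 and Hoxc13, by 2.14 to 6.30 points. Hoxc6 was at 2.74% in MCR and 9.04% in Control mice, and Hoxc8, which helps to place the mammary buds, at 1.06% in MCR and 3.20% in Control mice. Among tail-end HoxD genes, which pattern limbs and genital tract, the promoters of Hoxd12 (6.85% in MCR, 14% in Control) and Hoxd11 (2.96% in MCR, 6.46% in Control) and the bodies of both were lower. The promoters of Hoxb6 and Hoxd8 were also lower, by 2.14 and 1.32 points.

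Gains in MCR were found at the tail end of HoxA, the middle of HoxB, Hoxc11 and the head end of HoxD. Hoxa11, a gene of limb and uterus, had body levels of 30.3, 30.3 and 32.8% in MCR mice, against 15.9, 13.9, 18.9, 20.7 and 19.9% in Control mice, a difference of 13.3 points (SE 2.24, adjusted p = 0.000415). Hoxa7 had 28.0, 28.1 and 28.2% in its body in MCR mice, against 14.8, 15.9, 17.6, 14.9 and 20.7% in Control mice (4 CpGs, 11.3 points, adjusted p = 0.000927). In both, all MCR mice lay above all Control mice. The body of Hoxa9 stood at 9.04% in MCR and 4.72% in Control mice (5 CpGs, adjusted p = 0.00547), whereas its promoter, at 22.3% in MCR and 21.4% in Control mice, was not called. Hoxa10 was a mixed case, with 1 run lower by 3.20 points (adjusted p = 0.0192) and another higher by 5.34 points (adjusted p = 0.0039).

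Mir196b lies between Hoxa9 and Hoxa10 and encodes a microRNA that represses Hox messages, among them Hoxb8. Its mature 5p strand, with the seed (bases 2 to 8) in capitals, is shown because 9 tested CpGs lay within 300 bases of its hairpin:
mmu-miR-196b-5p: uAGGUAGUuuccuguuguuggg

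All 9 CpGs had a higher mean in MCR than in Control mice, by 0.976 to 13.2 points, and 2 of them were called, where 4.54% of all CpGs were higher and 32.8% lower. One of the called CpGs, at chr6:52230034, stood at 25.1% ± 11.1 in MCR and 12% ± 3.61 in Control mice (adjusted p = 0.0194).

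Hoxb5 and Hoxb6, central genes of HoxB, went against their neighbours Hoxb4 and Hoxb7. The Hoxb5 promoter had 34.2, 31.9 and 34.2% in MCR mice, against 19.2, 20.5, 26.6, 28.9 and 23.3% in Control mice (21 CpGs, 9.77 points, SE 2.62, adjusted p = 0.0063). The body of Hoxb6 was at 21.4, 29.5 and 22.8% in MCR mice, against 12.4, 11.8, 18.5, 17.4 and 14% in Control mice (11 CpGs, 9.75 points, adjusted p = 0.00456). Neither overlapped, and MCR mouse 95 was the highest at Hoxb6. A Hoxb6 body CpG at chr11:96300842 stood at 55.1% in MCR and 21.7% in Control mice. In HoxC, the body of Hoxc11 rose by 8.11 points (adjusted p = 0.00262), while its promoter fell by 4.55 points (adjusted p = 0.015).

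HoxD ran opposite to HoxA, with gains at its head end. Among CpGs of Hoxd1, Hoxd3 and Hoxd4, 43 of 167 were higher in MCR and none lower, whereas 6 of 57 tail-end CpGs were lower and none higher. Over all CpGs 4.54% were higher and 32.8% lower, so the tail-end losses made up a smaller share than in the table as a whole. Hoxd3, known in blood vessel growth, had body levels of 28.7, 30.5 and 32.1% in MCR mice, against 21, 20.9, 23.9, 23.6 and 21.3% in Control mice (90 CpGs, 8.28 points, SE 1.71, adjusted p = 0.000771). The largest gain of any Hox run was inside Hoxd3 (chr2:74734592-74734786, 7 CpGs), at 49.6, 62.3 and 59.1% in MCR mice, against 22.7, 20.5, 32.6, 39.3 and 24.4% in Control mice (29.1 points, SE 6.05, adjusted p = 0.00109). No MCR mouse overlapped the Control mice there. Its CpG of largest gain, at chr2:74734745, had 44.4, 67.7 and 64.0% in MCR mice, against 10.3, 15.5, 29.6, 38.7 and 17.5% in Control mice. The promoters of Hoxd4 (8.19 points, adjusted p = 0.0188) and Hoxd3 (5.60 points, adjusted p = 0.02) were also higher, but neither was called without MCR mouse 95 (4.03 and 4.20 points, adjusted p = 0.218 and 0.127), nor was Hoxd3 without mouse 96 (adjusted p = 0.0609). The same held for losses at the promoters of Hoxc11 and Hoxc13 and the body of Hoxc4 without mouse 95, and at the bodies of Hoxb9 and Hoxc10 without mouse 85.

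**Figure D4:**
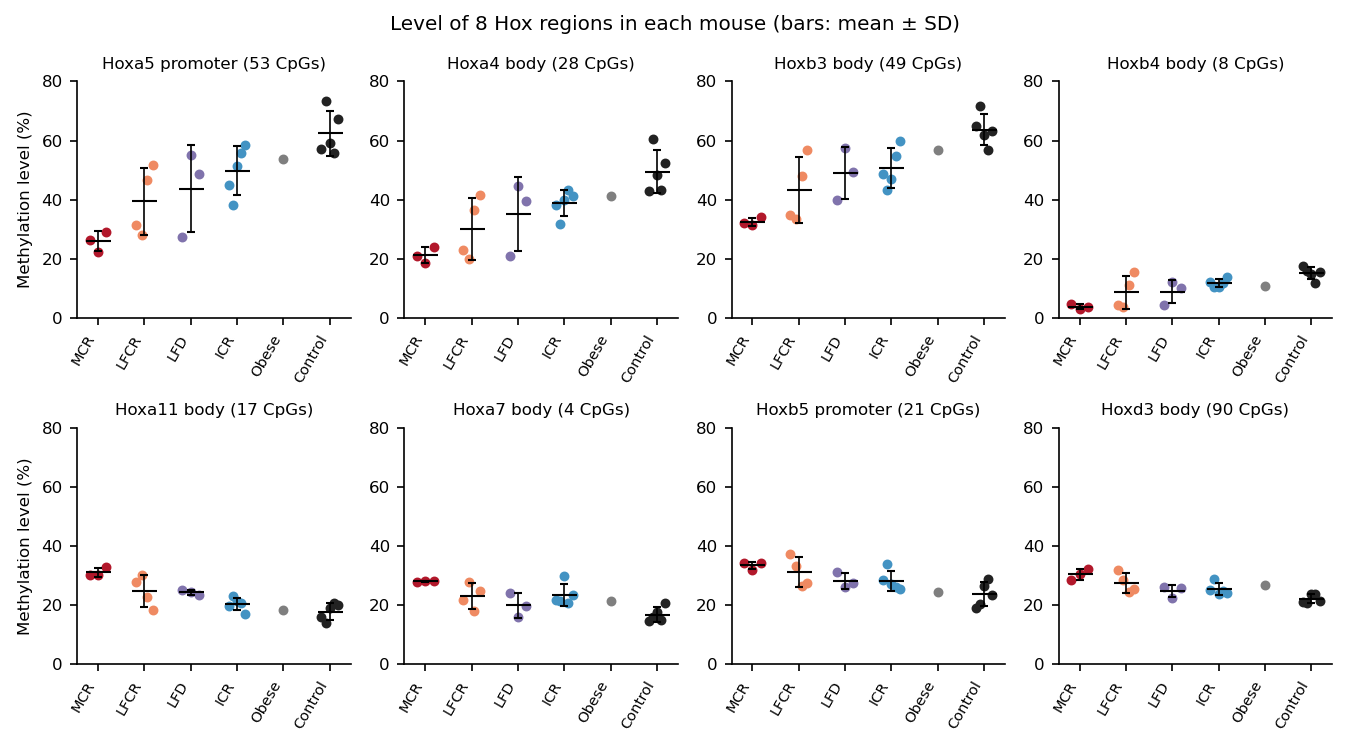
Methylation level in percent (y axis) of 8 Hox regions in each of the 21 mice by diet group (x axis); horizontal bars with whiskers are the mean ± SD of a group, and the Obese group has 1 mouse. In the upper row (Hoxa5 promoter, bodies of Hoxa4, Hoxb3 and Hoxb4) all MCR mice lie below all Control mice, and in the lower row (bodies of Hoxa11, Hoxa7 and Hoxd3, Hoxb5 promoter) above them.

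What a Hox CpG did in MCR went with its level in Control mice, as over the whole table. The same Control means enter the difference, which by itself tilts high ranges to losses and low ranges to gains. A CpG under 5% in Control mice also has little room to fall. The Hox shares are therefore given beside those of all CpGs in the same range. At 10 to 30% in Control mice 17.6% of Hox CpGs were lower and 20.6% higher, against 23.5% and 14.3% of all CpGs. Of 145 Hox CpGs at 50 to 70% in Control mice, 124 were lower and none higher, or 85.5%, where 53.6% of all tested CpGs in that range were lower. At 30 to 50% the share lower was 67.5%, against 36.6% of all CpGs, and at 70 to 90% it was 74.0%, against 44.7%. None of the Hox CpGs at 50 to 90% was higher, where 5.02% of all CpGs at 50 to 70% and 1.12% of those at 70 to 90% were. Of 11 Hox CpGs above 90%, 6 were lower and none higher, against 29.7% and 0.0191% of all CpGs. At 5 to 10%, 28.4% of Hox CpGs were higher and 2.75% lower, against 11.3% and 5.39% of all CpGs. Under 5%, 6 of 135 Hox CpGs were higher and none lower, against 1.36% and 0.235% of all CpGs. At 30 to 50%, 5.00% of Hox CpGs were higher, against 11.6% of all. The 480 Hox CpGs in islands were lower in 46.7% of cases, against 21% of all island CpGs, and higher in 5.62%, against 3.5%. The 340 in island shores were higher in 20.3%, against 5.51% of all shore CpGs, and lower in 25.3%, against 32.5%. The 54 in shelves, beyond the shores, were lower in 16.7%, against 41.9%, and higher in 24.1%, against 5.54%. The 76 outside all of these were lower in 35.5%, against 36.6%, and higher in 2.63%, against 4.54%. These 4 classes were not matched for level in Control mice. Neighbouring CpGs share reads and fragments, so these shares carry no test. They also pool the clusters, whose shares of lower and higher CpGs differed, and so do not describe each cluster.

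**Figure D5:**
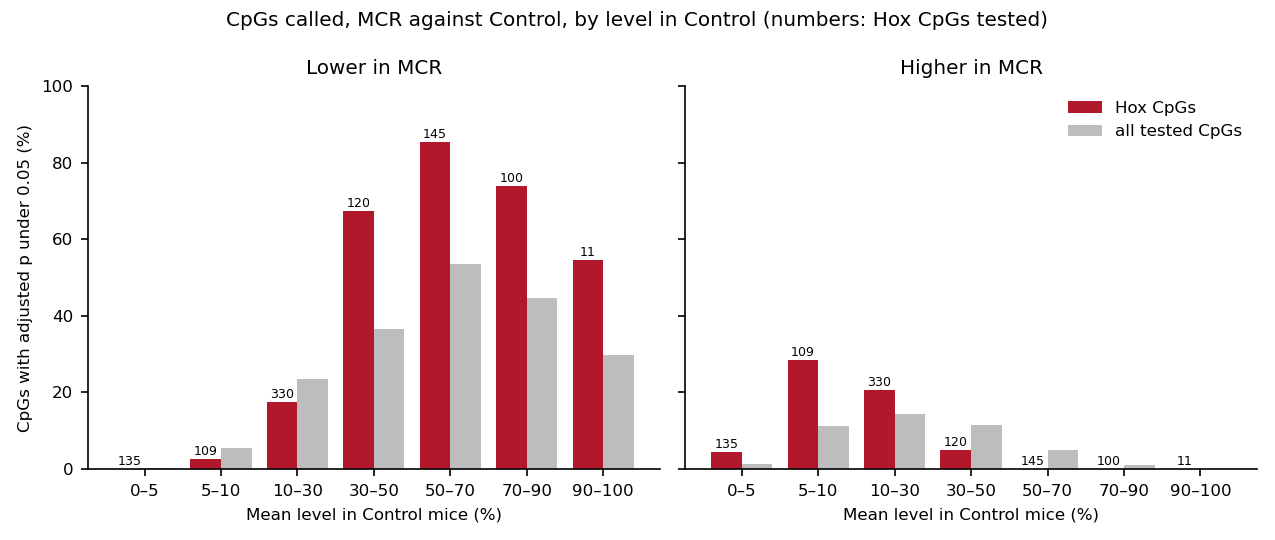
Share of CpGs in percent (y axis) with an adjusted p under 0.05 in MCR against Control, lower in MCR in the left panel and higher in the right, by mean level in Control mice (x axis, percent); red bars are Hox CpGs, with the number tested above each, and grey bars are all tested CpGs. The Hox share of lower CpGs peaks at 85.5% between 50 and 70%, and that of higher CpGs at 28.4% between 5 and 10%.

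Low-fat calorie restriction showed the same kinds of regions, mostly with smaller differences, and its calls depended on single mice. Among the exceptions, the Hoxc9 body and the Hoxb13 promoter fell more in LFCR than in MCR. In LFCR, 78 of 405 promoter-feature CpGs were lower and 8 higher than in Control mice (9.36% and 1.08% of all), and 99 of 424 body CpGs were lower and 23 higher (12.6% and 1.55% of all). By region, 14 of 30 promoters were lower and 1 higher (25% and 2.08% of all), and 8 of 25 bodies were lower and 5 higher (39.8% and 2.52% of all). This comparison uses the same Control mice as that of MCR. In 13 of the 28 called regions every LFCR mouse lay outside the range of the Control mice. Without LFCR mouse 63 or without mouse 67 no Hox region was called. There were 14 calls without Control mouse 2 and 31 without LFCR mouse 72, against 28 with all mice. The Hoxa5 promoter still differed by -20.5 points without mouse 63 (limma adjusted p = 0.0849). Without mouse 67 it differed by -19.4 points (limma adjusted p = 0.082). With all 25 libraries 5 Hox regions were called.

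Hoxa5 promoter levels in LFCR mice 63, 67, 69 and 72 were 31.4, 28.0, 46.5 and 51.6%, against 57.0, 73.5, 59.1, 55.7 and 67.3% in Control mice, a difference of -23.2 points (SE 6.13, adjusted p = 0.0186). In the Hoxb3 body the LFCR mice had 34.7, 33.5, 47.9 and 56.8%, against 57.0 to 71.6% in Control mice (-20.5 points, SE 4.66, adjusted p = 0.0112). Hoxa4 fell by 19.4 points (adjusted p = 0.0118) and Hoxb4 by 6.50 points (adjusted p = 0.0237) in their bodies. In each of these 4 regions mice 63 and 67 were the lowest of the 4 and mouse 72 the highest, as they were over all tested CpGs. The largest loss at a CpG, shared by Hoxa4 and Hoxa3 at chr6:52190431, was 35.4% in LFCR against 75.1% in Control mice (n = 4 each). The LFCR promoters of Hoxa2, Hoxa6 and Hoxb3 fell by 15.1, 16.6 and 17.3 points. Smaller losses were called at the promoters of Hoxb13, Hoxc5, Hoxc6, Hoxc8, Hoxc11, Hoxc13, Hoxd8, Hoxd11 and Hoxd12, by 1.37 to 5.24 points, and in the bodies of Hoxb9, Hoxc4, Hoxc5 and Hoxc9, by 5.55 to 6.88 points.

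Gains in LFCR were called at 6 regions. Hoxa11 had body levels of 27.9, 30.4, 22.7 and 18.5% in LFCR mice, against 13.9 to 20.7% in Control mice (7.01 points, adjusted p = 0.0164), with mouse 72 inside the Control range. Hoxd3 had 32.0, 28.6, 24.6 and 25.4% in LFCR mice, against 20.9 to 23.9% in Control mice (5.52 points, adjusted p = 0.0149), and did not overlap. A Hoxa7 body CpG at chr6:52218253 had 65.9, 75.6, 53.7 and 58.5% in LFCR mice, against 30.8, 39.3, 43.1, 37.2 and 50.9% in Control mice, again without overlap. The Hoxb5 promoter and the bodies of Hoxb6, Hoxa7 and Hoxc11 rose by 7.43, 7.39, 6.33 and 6.90 points. Along HoxA, 103 of 235 CpGs from Hoxa2 to Hoxa6 were lower and none higher in LFCR, and from Hoxa7 to Hoxa13 3 of 121 were lower and 11 higher, where 12.1% of all CpGs tested were lower and 1.48% higher.

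In LFD against Control no Hox CpG or region was called by limma, nor any CpG or region of the table (0% lower and 0% higher). At an unadjusted p under 0.05, 95 promoter-feature CpGs were lower and 10 higher (23.5% and 2.47%, against 11.9% and 2.48% of all), and 119 body CpGs were lower and 22 higher (28.1% and 5.19%, against 16.5% and 3.31% of all). The Hoxa6 promoter, of smallest p, had 20.2, 31.3 and 32.5% in LFD mice 42, 47 and 48, against 36.2 to 53.9% in Control mice (-16.7 points, SE 5.34, adjusted p = 0.139). All LFD mice lay below the Control range there. The Hoxa3 promoter differed by -18.0 points (adjusted p = 0.141), and the bodies of Hoxa11, Hoxa3 and Hoxb9 by 6.53, -13.7 and -6.58 points (adjusted p = 0.103 each). Without LFD mouse 47, 3 Hox regions were called.

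ICR against Control had no Hox call and none in the table either (0% lower and 0% higher). At an unadjusted p under 0.05, 52 promoter-feature CpGs were lower and 12 higher (12.8% and 2.96%, against 8.54% and 1.83% of all), and 77 body CpGs were lower and 25 higher (18.2% and 5.90%, against 10.8% and 2.39% of all). The region of smallest p was the Hoxa7 body, at 21.7, 21.3, 29.8, 20.9 and 23.3% in ICR mice, against 14.8, 15.9, 17.6, 14.9 and 20.7% in Control mice (6.61 points, SE 2.09, adjusted p = 0.28). ICR mouse 105 was the highest, and every ICR mouse was above every Control mouse. Next came the Hoxc5 promoter at 5.94% in ICR and 7.84% in Control mice (adjusted p = 0.296) and the Hoxb3 body at 50.7% in ICR and 63.7% in Control mice (adjusted p = 0.28).

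Diets were also set against each other at the same restriction or the same food. In MCR against LFCR no Hox CpG or region was called, and over all CpGs 0.00774% were lower and 0.00232% higher; 46 Hox CpGs were lower and 31 higher at an unadjusted p under 0.05, or 4.84% and 3.26%, against 8.81% and 2.01% of all CpGs. The Hoxa5 promoter was at 25.9% in MCR and 39.4% in LFCR mice (-13.4 points, SE 6.98, adjusted p = 0.509), and the Hoxa11 body at 31.1% in MCR and 24.9% in LFCR mice (6.26 points, SE 2.34, adjusted p = 0.363). In LFCR against LFD there was no call among Hox CpGs or in the table (0% lower and 0% higher), with 34 Hox CpGs lower and 14 higher at an unadjusted p under 0.05, or 3.58% and 1.47%, against 3.87% and 1.38% of all CpGs. The Hoxc9 body had 13.3, 11.2, 19.0 and 17.6% in LFCR mice, against 26.4, 22.1 and 24.1% in LFD mice, without overlap (-8.88 points, limma adjusted p = 0.92). With 3 to 5 mice a group, the absence of a call does not show equal levels.

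Non-coding genes and neighbours of the clusters moved in both directions. In MCR, 3 of 8 measured promoters of that list of 29 genes were lower and 2 higher, and 4 of 8 bodies were lower and 1 higher. Over all genes 43.2% of promoters were lower and 4.26% higher, and 61% of bodies were lower and 4.19% higher. Hotair, a long non-coding RNA of HoxC that binds Polycomb proteins, had a promoter level of 25.2% in MCR and 10.1% in Control mice (15.2 points, SE 2.66, adjusted p = 0.000826). Hoxaas3 shares CpGs with Hoxa3 and fell by 33.3 points at its promoter. Hoxb3os, antisense at Hoxb3, fell by 20.7 points at its promoter, and Hotairm1, at the head end of HoxA, by 8.62 points in its body. Among neighbours that are not Hox genes, the bodies of Smug1 and Ttll6 each fell by 18.5 points (limma adjusted p = 0.00233 and 0.000661). Hoxa11os, antisense to Hoxa11, rose by 10.8 points in its body. Antisense genes share CpGs with their partners, so these are not separate measurements.

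Genes that act with or on Hox genes are given by list for MCR, to be read against the 43.2% of all promoters and 61% of all bodies that were lower. Of the TALE homeodomain cofactors, which bind DNA together with Hox proteins, 3 of 8 bodies were lower and none higher, with Pbx2 at -20.6 points and Meis3 at -5.45 points. Among Polycomb genes, 3 of 6 promoters and 9 of 14 bodies were lower, with Pcgf2 at -22.2 points and Phc2 at -20.7 points at promoters and Cbx6 at -19.9 points in the body. The list of Trithorax genes and H3K27 demethylases, which keep Hox genes active, also held Dot1l, which is neither. This list had 2 of 4 promoters and 5 of 6 bodies lower, with the bodies of Kdm6b at -14.7 points and Dot1l at -14.6 points. Of the retinoic acid and Cdx genes, which regulate Hox genes in the embryo, 5 of 8 promoters and 9 of 10 bodies were lower and none higher. Rarg was at -23.1 points in the body and Cyp26c1 at -22.5 points at the promoter. The median difference of the retinoic acid and Cdx bodies was -16.0 points, against -7.58 points over all bodies.

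Markers of the cell types of a fat pad are likewise set against all genes, of which 43.2% of promoters were lower and 4.26% higher in MCR, and 61% of bodies were lower and 4.19% higher. Leukocyte markers had 2 of 4 promoters lower and 2 higher and 2 of 8 bodies each way, with Lat at 35.4 points and Cd37 at -46.3 points at promoters. Adipocyte marker bodies were lower in 4 of 5, fibroblast bodies in 2 of 3, luminal epithelial promoters in 4 of 7 and skeletal muscle bodies in 4 of 5, with none higher in these. Luminal bodies were lower in 1 of 6 and higher in 2, Gata3 (6.16 points) and Epcam (6.36 points). Of 2 muscle promoters 1 was lower and 1, that of Myog, higher by 17.2 points. Endothelial bodies were lower in 4 of 6 and higher in 1, and of 5 endothelial promoters 1 was lower and 1, that of Eng, higher by 13.1 points. The 1 measured promoter each of the adipocyte and basal epithelial lists was not called. The mean over the leukocyte marker bodies was 65.5% in MCR and 61.6% in Control mice. The mean over the adipocyte marker bodies was 56.8 to 59.9% in MCR and 74.4% ± 4.23 in Control mice. The part of these markers in the Hox differences was not tested, and levels of methylation do not show whether a cell type's genes are expressed.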

How the data were processed

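RRBS libraries were aligned with Bismark to mm10, per the submitters' processing notes; further settings are not given in the sources used here. The deposited file gives a methylation fraction per CpG and library, and an average coverage (signal) per CpG computed by the authors. Read counts per library were not used here, so the planned count model was replaced by its stated fallback, a linear fit of the levels in percent with limma 3.58.1 (R 4.3.3, with the data.table package, version 1.17.8), with 1 mean per diet group and Benjamini-Hochberg adjustment over all CpGs or regions. CpGs needed an average coverage of 10 and values in at least 3 mice of each compared group. Figures used python 3.11.15, pandas 2.3.3 and matplotlib 3.10.9. The code was tested on simulated data. Members, gene lists and tests were chosen with earlier results of these data known. Named were up to 10 called Hox regions of largest difference per direction (3 of smallest p where none was called). Also named were 3 CpGs per direction, and 2 genes per list and direction. Other features named were chosen after their values were seen, as was the grouping into runs. The cut between Hoxa6 and Hoxa7 was not planned. Labels do not say more on how mice were housed or batched. The p-values set a group difference against the spread between these mice within groups, as 1 estimate pooled over the groups. That spread was unequal, with an SD from Hoxa2 to Hoxa6 of 2.33 in MCR and 10.8 in LFCR. Alternatives were all 25 libraries, other coverage minimums, an arcsine scale, larger regions, a minimum difference, promoters without 1st exons and leaving out each mouse. Some items are not reported here.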

Additional observations from a re-analysis of the deposited data

Results flagged for a closer look

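In 102 groups of mice examined, 4 had 1 mouse far from the rest, and chance flags about 1 in 20 such groups. ICR mouse 106 had 7.38% at the Hoxc11 promoter, against 4.90 to 5.36% in the other ICR mice. ICR mouse 102 had 24% in the Hoxb9 body, against 19.6 to 20.6%. ICR mouse 105 had 29.8% in the Hoxa7 body, against 20.9 to 23.3%. ICR mouse 103 had 28.8% in the Hoxd3 body, against 23.8 to 25.2%.

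The Hoxc9 body lay above the Control mean of 20.8% in every LFD mouse, by 3.34 points on average, and below it in every MCR mouse (-3.29 points) and every LFCR mouse (-5.55 points). The difference between LFD and MCR was not tested, and that between LFCR and LFD had an adjusted p of 0.92 in limma.

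The 4 libraries left out had signal where the others had almost none. Over the 135 Hox CpGs under 5% in Control mice, Obese mice 27, 28 and 40 had mean levels of 50.1, 50.6 and 51.0% and LFD mouse 46 had 50.2%, against 1.79 to 2.37% in Control mice. The cause was not tested.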

How the results depend on the processing

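Counts of called Hox regions, 37 in MCR and 28 in LFCR against Control, moved with several settings. They were 15 and 5 with all 25 libraries, and the cause was not tested. With a minimum difference of 10 points they were 16 and 8. They were 18 and 17 with at least 10 CpGs a region, and 21 and 15 with promoters without 1st exons. Both of these settings left fewer regions or CpGs to test, as 300 of the 405 promoter-feature CpGs were annotated to the 1st exon. Leaving out 1st exons did not change the body regions, of which 13 were lower and 6 higher in MCR. In LFCR 8 bodies were lower and 5 higher. Most of the 21 and 15 calls were therefore bodies, and few promoters stayed called. Of the named promoter results compared, 5 kept their call or lack of one and 2 lost it. With at least 10 CpGs a region, all 41 named results compared kept their call or lack of one. Called promoter-feature CpGs, 177 in MCR, were 59 without 1st exons; in LFCR, 86 became 48 with all 25 libraries and 29 without 1st exons. Leaving out 1 mouse gave 27 to 37 regions, 203 to 244 body CpGs and 144 to 180 promoter-feature CpGs in MCR, and 0 to 31, 0 to 193 and 0 to 147 in LFCR, with 0 regions without LFCR mouse 63 or 67 and 14 without Control mouse 2. In LFD it gave 0 to 3 regions and 0 to 1 promoter-feature CpGs. With all 25 libraries the LFD differences turned positive at the Hoxb9 body (3.33 points) and Hoxd8 promoter (10.8 points). No paired analysis was possible because replicate numbers are mouse numbers and groups share none. Without read counts per library, the depth behind a single value is unknown.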
